A study of Mus musculus with 4 samples.

Results

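The stretch described here is the right end of a capture Hi-C map of mouse chromosome 1, from 79140001 to 81000000 in build mm9, which no rearrangement of the series reaches. Its members were all pairs of 10 kb bins with both bins in the stretch and at least 20 kb between them. These are 17020 of the 500500 pairs of the map (3.40%), formed by 186 bins over 1860 kb. They were chosen by position alone and by no measured value.

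Capture Hi-C counts how often 2 pieces of the genome are ligated to each other after crosslinking, in DNA enriched with probes for a chosen region, here the region of Epha4, a gene for an ephrin receptor. Distal limb buds were taken from mouse embryos at E11.5 of 4 genotypes, with 1 library each: the mutants DelB, DelBs and InvF, all homozygous, and wild type (WT). The sources used here give neither the strain nor how many embryos were pooled. The rearrangements were located from the maps as a deletion of 1670 kb in DelB (76390001 to 78060000), a deletion of 1470 kb in DelBs (76390001 to 77860000) and an inversion of 1070 kb in InvF (74830001 to 75900000).

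The nearest rearranged base therefore lies 1080 kb to the left of the stretch in DelB, 1280 kb in DelBs and 3240 kb in InvF. Since each genotype has a single library, the variation among embryos is unknown and nothing was tested for significance. Intervals printed below as a range are exact, and those printed after ± are normal approximations. All are 95% intervals that cover counting error alone. A difference larger than its interval is thus a difference between 2 libraries, and genotype and library cannot be told apart.

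Mammalian chromosomes fold into domains, stretches whose sequences meet each other more often than they meet the neighbouring stretch. In the current model the ring complex cohesin extrudes loops of chromatin until it meets CTCF, a zinc finger protein bound to DNA. Domain borders therefore often hold CTCF sites, and 2 facing sites often appear in a contact map as a focal dot at the corner of a domain. Contacts also fall steeply with the distance between the sequences. The observed over expected values below are therefore read against the mean of their own library at the same distance. Totals, window ratios, insulation and block ratios are not corrected for distance unless matching is stated. Neither CTCF nor cohesin was measured here.

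As to the genes of the neighbourhood, in the RefSeq table of assembly GRCm38 the protein-coding genes that follow Pax3 on this side are, in order, Gm2102, Sgpp2, Farsb, Mogat1, Utp14b, Acsl3, Kcne4, Scg2, Ap1s3, Wdfy1, Mrpl44, Serpine2, Fam124b, Cul3, Dock10, Nyap2 and Irs1. Pax3 encodes a transcription factor of neural crest and muscle precursors, Scg2 a protein of secretory granules, Serpine2 a secreted inhibitor of serine proteases, Cul3 a scaffold of ubiquitin ligases, Dock10 an exchange factor for small GTPases and Irs1 an adaptor of the insulin receptor. Which of them lie in which bin was not checked, since no mm9 annotation was used. No sequence is printed for the same reason.

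The stretch held 535490 counts in DelB, 545227 in DelBs, 458155 in InvF and 380677 in WT, out of totals of 5543587, 5832748, 6073471 and 5155274. A pair of bins had a median of 15 counts in DelB, 16 in DelBs, 13 in InvF and 10 in WT. At least 1 count was found in 97.6% of the pairs in DelB, 97.7% in DelBs, 97.3% in InvF and 96.4% in WT. The interval is thus measured at almost every pair, and WT, the library that all mutants are set against, is the shallowest there.

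Bins were not covered evenly, and the unevenness recurred from library to library. Coverage is here the sum of a bin's counts over the pairs of the stretch alone. Bins near either end have fewer short-range partners within the stretch, which lowers their coverage by construction. Of the 186 bins, 23 had under 50% of the median bin coverage in all 4 libraries (25 in any of them) and 18 had over 150% in all of them (30 in any). The best covered bin in WT, 79840001 to 79850000, had 2.07 times the median in DelB, 2.01 in DelBs, 2.10 in InvF and 2.19 in WT. The bin from 79960001 to 79970000 had 7.17% of the median in DelB, 8.46% in DelBs, 8.66% in InvF and 8.06% in WT. The bin from 80680001 to 80690000 was close to empty, with 0.245% in DelB, 0.0517% in DelBs, 0.0828% in InvF and 0.202% in WT. These last bins alone held 57.2% of the pairs without a count in DelB, 56.8% in DelBs, 54.0% in InvF and 40.6% in WT.

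Low coverage was clustered at the left of the stretch. How much of this comes from leaving out partners beyond the left end was not tested. The first 530 kb held 13 of the 23 bins under 50% in WT, among them a run of 3 bins from 79150001 to 79180000 and another from 79480001 to 79510000. Over the 184 bins above 10% of the median, the log2 ratio of coverage to WT had a standard deviation over bins of 0.05 with DelB, 0.11 with DelBs and 0.07 with InvF. The widest departure was in DelBs, at -0.44 for the bin from 80610001 to 80620000. DelBs thus differed most from WT in which bins it covered, and its part in the DelBs results below was not tested beyond setting values from the balanced maps beside them. Those are the deposited KR-normalized maps, in which every bin of a library is brought to about the same sum.

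To compare totals, each library was scaled to its counts over pairs 20 kb to 2 Mb apart that lie on one side of, and outside, every rearrangement. On that scale the stretch held 0.981 times the WT counts in DelB (0.977 to 0.985), 0.957 times in DelBs (0.953 to 0.961) and 0.968 times in InvF (0.964 to 0.972). On this scale all the mutant libraries were a few percent below WT. In the balanced maps the same ratios were 0.997 in DelB, 0.989 in DelBs and 0.9997 in InvF, which is nearer to 1 in each case. The scaling set includes the stretch itself. Scaled to the pairs left of every rearrangement alone, from 71000001 to 74830000, the ratios were 0.988, 0.944 and 0.957 for DelB, DelBs and InvF. With all counts of the map as the scale they would be 1.308, 1.266 and 1.022, above WT in all 3, so the direction of the totals depends on the scaling.

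The small deficit lay near the diagonal and turned with distance. At 20 to 50 kb the scaled ratio to WT was 0.949 in DelB (0.941 to 0.958), 0.916 in DelBs (0.908 to 0.924) and 0.955 in InvF (0.947 to 0.964). At 200 to 400 kb it was 0.976 for DelB, 0.955 for DelBs and 0.958 for InvF, all 3 with intervals below 1. At 800 to 1200 kb it was above 1 in DelB, at 1.083 (1.065 to 1.102), and in DelBs, at 1.064 (1.046 to 1.083), and was 1.013 in InvF (0.995 to 1.032), whose interval includes 1. The same tilt was present in the region left of every rearrangement, where the ratios were 0.948, 0.973 and 0.990 at 20 to 50 kb and 1.078, 1.104 and 1.046 at 800 to 1200 kb in DelB, DelBs and InvF. It is therefore not particular to the right end of the map. In the balanced maps the tilt remained, with 0.965, 0.954 and 0.989 at 20 to 50 kb and 1.098, 1.119 and 1.059 at 800 to 1200 kb within the stretch.

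**Figure D1:**
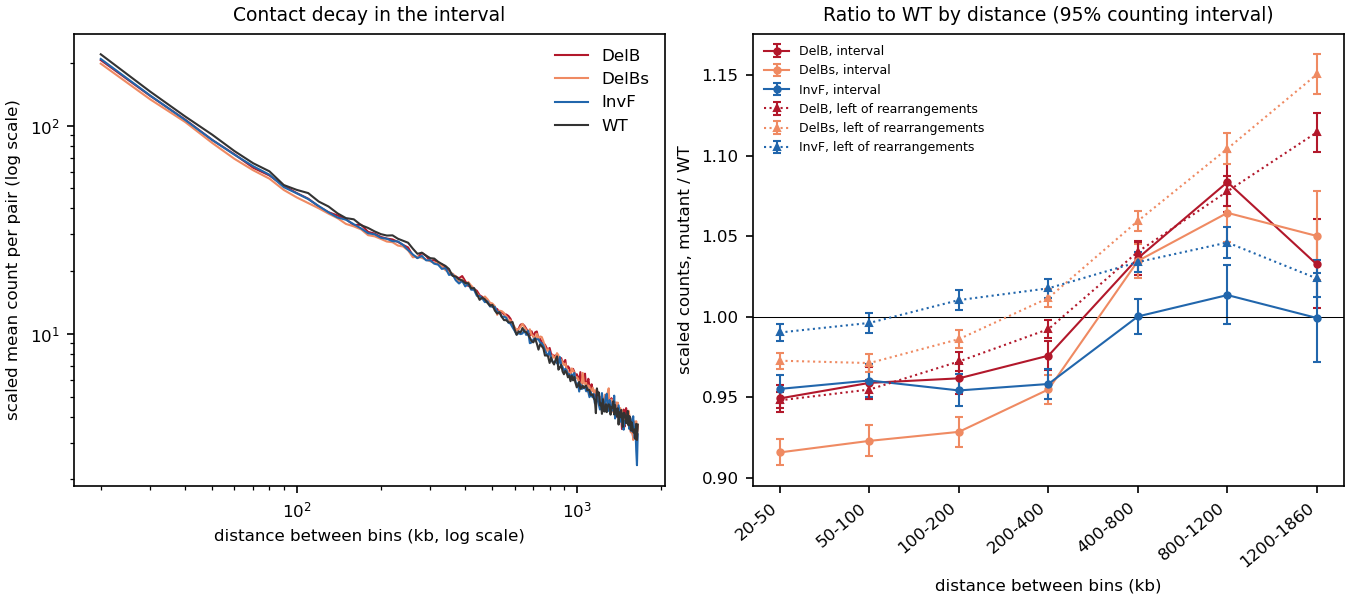
Left panel: mean count per pair of bins, scaled to WT, against the distance between the bins (both axes log) for DelB, DelBs, InvF and WT. Right panel: scaled ratio of each mutant to WT by distance class with its 95% counting interval, in the stretch (circles, solid lines) and left of every rearrangement (triangles, dotted lines); at 20 to 50 kb the stretch gives 0.949, 0.916 and 0.955 in DelB, DelBs and InvF, and at 800 to 1200 kb 1.083, 1.064 and 1.013.

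Contacts in the stretch fell with distance at a slope, on log10 axes from 20 kb to 1 Mb, of -0.861 in DelB, -0.850 in DelBs, -0.884 in InvF and -0.913 in WT, each ± 0.004 to 0.005 by counting. A pair of bins 20 kb apart had a mean of 295.9 raw counts in DelB, 297.0 in DelBs, 260.0 in InvF and 220.0 in WT. A pair 1 Mb apart had 9.17 in DelB, 9.28 in DelBs, 7.07 in InvF and 5.53 in WT. The decline over that distance was thus 32.3-fold in DelB, 32.0-fold in DelBs, 36.8-fold in InvF and 39.8-fold in WT. WT had the steepest decay and DelBs the shallowest, and the slope minus that of WT was 0.052 for DelB, 0.063 for DelBs and 0.029 for InvF (each ± 0.006 to 0.007).

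The decay of the stretch was shallower than that of the region to the left in every library. Left of every rearrangement the slope was -0.907 in DelB, -0.905 in DelBs, -0.932 in InvF and -0.948 in WT. The stretch minus the left region came to 0.046 ± 0.005 in DelB, 0.056 ± 0.005 in DelBs, 0.048 ± 0.005 in InvF and 0.035 ± 0.006 in WT. In counts, a pair 20 to 50 kb apart had 0.725 times the scaled mean of such a pair on the left in DelB, 0.682 in DelBs, 0.699 in InvF and 0.724 in WT. At 1200 to 1860 kb the order was turned round, with 1.09 times in DelB, 1.08 in DelBs, 1.15 in InvF and 1.18 in WT. In raw counts the stretch had fewer short contacts than the left region and more of the longest ones, in all 4 libraries. These slopes and ratios between regions were not set beside balanced values. How far unequal capture of the regions enters them was not tested.

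Within the stretch the deficit against WT at distances below 400 kb varied with position. In windows of 200 kb the lowest ratio of DelBs was 0.857 (0.845 to 0.868, from 50563 counts against 39436 in WT), at 79740001 to 79940000, and in the balanced maps this window gave 0.944. The lowest window of DelB was 79940001 to 80140000 at 0.926 (0.914 to 0.938), or 0.961 when balanced. That of InvF was 80740001 to 80940000 at 0.927 (0.912 to 0.943), or 0.980 when balanced. The first window, 79140001 to 79340000, was at 1.004 in DelB (0.985 to 1.024), 1.021 in DelBs (1.001 to 1.040) and 1.018 in InvF (0.998 to 1.038) in raw counts. Its balanced ratios were 0.990 in DelB, 0.972 in DelBs and 1.002 in InvF, so that the DelBs value turned to below WT. The last window, cut short at 80940001 to 81000000 and with 25 pairs, had the highest DelBs ratio, 1.110 (1.060 to 1.163). DelB was at 0.987 there (0.941 to 1.036) and InvF at 1.049 (0.999 to 1.102). Its balanced ratios were 1.008 in DelB, 1.106 in DelBs and 1.073 in InvF. These windows were picked as extremes, so their values describe the profile and carry no test.

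The stretch was divided by 3 boundaries in every library. Insulation was scored as the log2 of the mean count between the 200 kb left and the 200 kb right of a position, relative to the library mean, and a boundary is a minimum with a depth of at least 0.2, the depth being its drop from the lower of the peaks found on either side up to 200 kb away. In DelB, in DelBs and in WT the boundaries fell after 79670000, 80170000 and 80500000, and in InvF after 79670000, 80170000 and 80510000. Positions thus differed from WT by 10 kb at most, which is 1 bin. The left region held 7 boundaries in DelB and 8 in DelBs, InvF and WT over 3.44 Mb that could be scored, and 7 of the 8 WT positions were matched within 50 kb in each mutant. The density was 2.04 per Mb in the stretch, against 2.03 per Mb on the left in DelB and 2.33 in the others.

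The deepest boundary was the middle one. After 80170000 its depth on the log2 scale was 0.93 in DelB, 0.85 in DelBs, 0.97 in InvF and 0.95 in WT, each ± 0.03 by counting. In the balanced maps it was 1.02 in DelB, 0.94 in DelBs, 1.02 in InvF and 1.04 in WT. DelBs had the shallowest value on both scales, with the other 3 close together. The square of contacts that spans this boundary held 13903 counts in DelB, 15587 in DelBs, 12252 in InvF and 10272 in WT. Pairs within the flanking domains were 1.74 times as frequent as pairs across it in DelB, 1.58 times in DelBs, 1.74 times in InvF and 1.81 times in WT, at matched distances of 20 to 330 kb. A poorly covered bin, 80180001 to 80190000, lies next to this boundary, with 0.382, 0.411, 0.408 and 0.386 times the median coverage in DelB, DelBs, InvF and WT.

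The first boundary differed between libraries in raw counts and less so after balancing. After 79670000 the raw depth was 0.37 in DelB, 0.53 in DelBs, 0.43 in InvF and 0.30 in WT (each ± 0.03 to 0.04), so that WT had the shallowest and DelBs the deepest. Balanced depths were 0.62 in DelB, 0.65 in DelBs, 0.70 in InvF and 0.64 in WT. The order of the libraries by depth was therefore not the same on the 2 scales, and DelBs and WT differed by only 0.01 in balanced depth. Pairs within the flanking domains, relative to pairs across this boundary at 20 to 330 kb, did keep 1 order. In raw counts this ratio was 1.321 in DelB, 1.544 in DelBs, 1.433 in InvF and 1.308 in WT. When balanced it was 1.5003 in DelB, 1.608 in DelBs, 1.576 in InvF and 1.464 in WT. By this measure DelBs was highest and WT lowest on both scales. With a window of 100 kb the raw depth at this position was under 0.2 in all libraries. That window placed a boundary after 79570000 in DelB, DelBs and WT and after 79560000 in InvF, beside poorly covered bins, and in DelBs another after 79680000. The balanced maps, with the 200 kb window, kept this boundary after 79690000 in DelB and after 79680000 in DelBs, InvF and WT, and added one after 79770000 in DelB and after 79760000 in the others. With a 400 kb window a boundary was called after 79670000 in DelB, DelBs and InvF but not in WT. The place of the border between domains 1 and 2 thus depends on the window and on the correction for coverage. Whether it was called in WT depended on the window.

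The last of the boundaries was shallow. After 80500000 the raw depth was 0.32 in DelB, 0.26 in DelBs, 0.31 in InvF and 0.36 in WT (each ± 0.03), and the balanced depth 0.33 in DelB, 0.35 in DelBs, 0.36 in InvF and 0.36 in WT. In raw counts the flanking domains met each other about as often as themselves, with a within-over-across ratio of 0.946 in DelB, 0.933 in DelBs, 0.941 in InvF and 0.961 in WT. In the balanced maps the ratio was 1.258 in DelB, 1.2496 in DelBs, 1.260 in InvF and 1.266 in WT. With a 100 kb window the raw depth here was under 0.2 in every library. Boundaries fell instead after 80380000 in DelB and DelBs and after 80410000 in InvF and WT. That window also placed a boundary further right, after 80770000, in every library. With a 400 kb window no boundary was called near 80500000 in any library. The within-over-across ratio here thus turned on the correction for coverage, alike in all 4 libraries, while the depth passed 0.2 on both scales. Whether the boundary was called depended on the window.

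**Figure D2:**
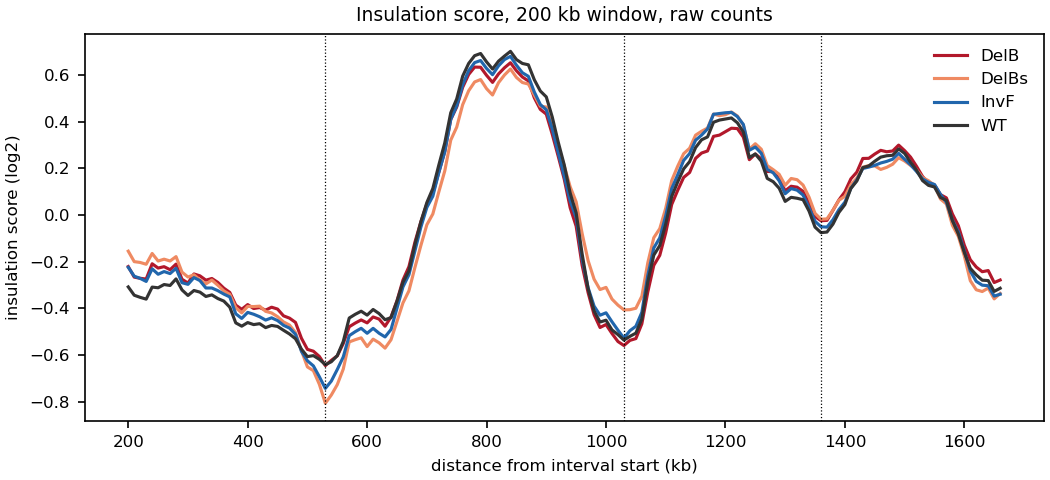
Insulation score (log2, 200 kb window, raw counts) against the distance from the start of the stretch in kb, for DelB, DelBs, InvF and WT; dotted lines mark the boundaries found in WT. All 4 lines dip at the 3 boundaries; DelBs is lowest at the first (depth 0.53, against 0.30 in WT) and highest at the second (depth 0.85, against 0.95 in WT).

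Along the 147 positions scored, the insulation of a mutant minus that of WT had a standard deviation of 0.05 with DelB, 0.08 with DelBs and 0.04 with InvF. The largest departures of DelBs were -0.17 after 79670000 and 0.15 after 79340000, and those of InvF lay at the same positions, at -0.10 and 0.08. DelB departed by -0.08 after 80030000 and by 0.10 after 79380000. The mutants share the WT library in this comparison, so a like departure in several mutants cannot be told apart from a departure of WT. The left end of the stretch, read with pairs that reach beyond it, was no strong boundary: the depth after 79140000 was 0.15 in DelB, 0.04 in DelBs, 0.10 in InvF and 0.24 in WT, which is the only value past 0.2.

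The WT boundaries cut the stretch into 4 domains: domain 1 from 79140001 to 79670000 (530 kb), domain 2 from 79670001 to 80170000 (500 kb), domain 3 from 80170001 to 80500000 (330 kb) and domain 4 from 80500001 to 81000000 (500 kb). Domain 1 starts and domain 4 ends where the stretch does, so these outer ends are not measured boundaries. Domain 2 held the largest share of the counts, 19.7% in DelB, 19.2% in DelBs, 20.1% in InvF and 20.7% in WT. Domain 1, the longest, held 14.4% in DelB, 14.5% in DelBs, 14.5% in InvF and 14.2% in WT. Median bin coverage was lowest in domain 1, at 0.797, 0.808, 0.797 and 0.801 times the median, and highest in domain 2, at 1.22, 1.24, 1.24 and 1.28 in DelB, DelBs, InvF and WT. Coverage in domains 1 and 4 is lowered in part because pairs that reach past the ends are left out.

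Pairs within a domain stood above pairs between neighbouring domains in every library, by 1.19 in DelB (1.18 to 1.20), 1.18 in DelBs (1.17 to 1.19), 1.20 in InvF (1.19 to 1.21) and 1.20 in WT (1.19 to 1.21), at matched distances of 20 to 520 kb. Balanced maps raised this to 1.27 in DelB, 1.26 in DelBs, 1.29 in InvF and 1.27 in WT. The WT values fall inside the range of the mutants when balanced, and the raw ones inside it too. The boundaries were placed on WT, so WT's own value is a description.

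Levels also differed from 1 pair of domains to another. Domains 1 and 2 met less than the distance predicts, at 0.699 times the expected level in DelB, 0.684 in DelBs, 0.686 in InvF and 0.694 in WT. This was the lowest level of any pair of domains in each library. Domains 2 and 4 met more than predicted although domain 3 lies between them, at 1.20 times in DelB (1.19 to 1.22), 1.17 in DelBs (1.16 to 1.19), 1.20 in InvF (1.18 to 1.21) and 1.18 in WT (1.17 to 1.20). Neighbouring domains 2 and 3 stood at 0.973 in DelB, 1.020 in DelBs, 0.983 in InvF and 0.9995 in WT, and neighbouring domains 3 and 4 at 1.058, 1.061, 1.052 and 1.019. In each library the outer pair thus exceeded both neighbouring pairs.

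This held after balancing. Domains 2 and 4 then stood at 1.11 in DelB, 1.11 in DelBs, 1.11 in InvF and 1.07 in WT, while domains 2 and 3 stood at 0.909, 0.929, 0.905 and 0.933, and domains 3 and 4 at 1.06, 1.05, 1.04 and 1.01. The level within domain 1 did change with the scale, from raw values of 0.825 in DelB, 0.838 in DelBs, 0.821 in InvF and 0.792 in WT to balanced values of 0.978, 0.984, 0.978 and 0.962. Domain 1 is the one with the lowest coverage, as counted over the pairs of the stretch alone. Within domain 4 the balanced values, 1.15, 1.16, 1.15 and 1.14, were also above the raw ones of 1.05, 1.02, 1.02 and 1.05. The expected level here is the mean of the stretch, so 1 stands for the average of these same pairs.

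**Figure D3:**
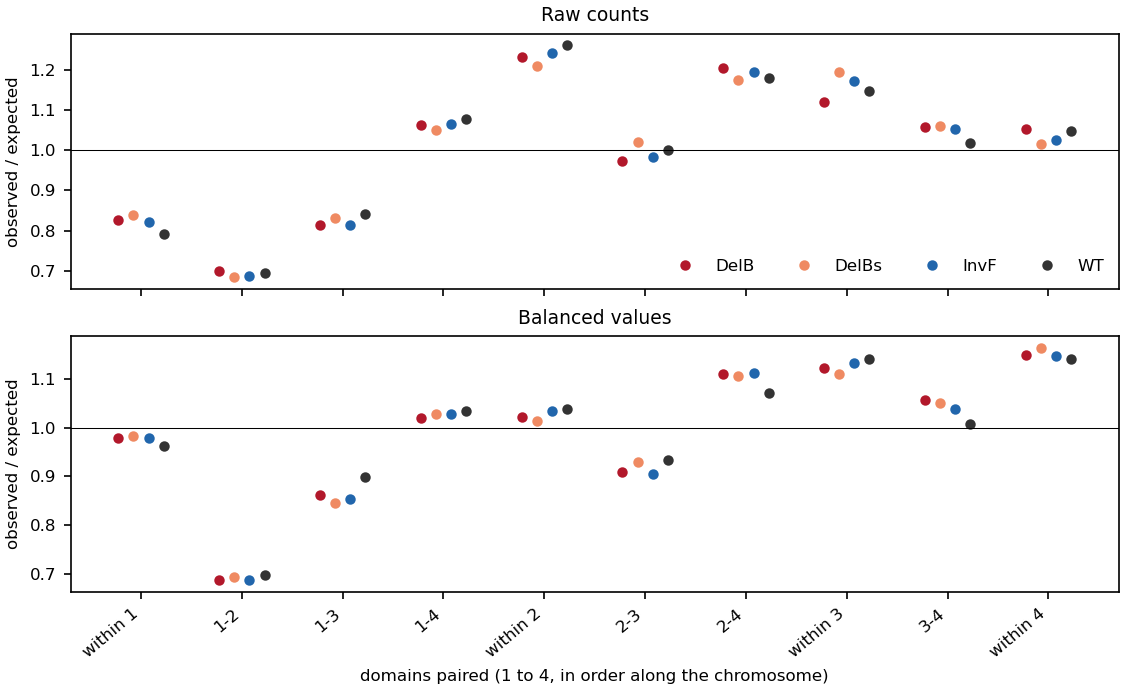
Observed over expected contacts within each of the 4 domains and between each pair of them, in raw counts (top) and balanced maps (bottom); points are the libraries DelB, DelBs, InvF and WT from left to right. Domains 1 and 2 are lowest, at 0.684 to 0.699 in raw counts, and domains 2 and 4 (1.17 to 1.20) lie above domains 2 and 3 (0.973 to 1.020) in every library.

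**Figure D4:**
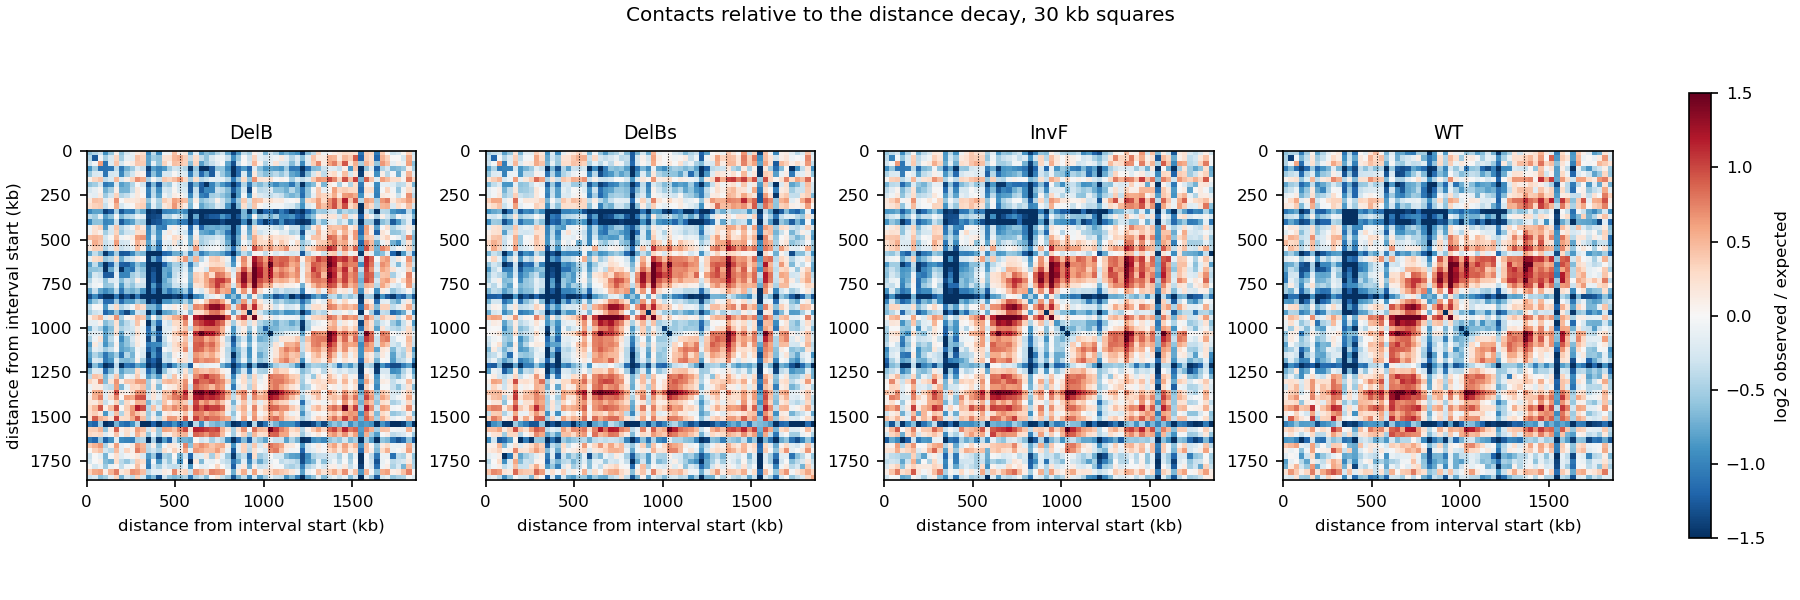
Log2 of observed over expected raw counts in squares of 30 kb, for DelB, DelBs, InvF and WT, with both axes in kb from the start of the stretch and dotted lines at the WT boundaries. Blue bands are poorly covered bins, such as the one 1540 to 1550 kb from the start; the block joining domains 2 and 4 is mostly red in all 4 maps.

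Focal contacts were taken as the 8 squares of 30 kb with the highest observed over expected value in WT, at least 100 kb apart on the chromosome and at least 60 kb from each other, and were then read in the mutants, which the choice did not use. By anchor centre, all 8 have 1 anchor or both in domain 2, and 4 of them join domain 2 to domain 4. The anchor 80150001 to 80180000, however, crosses the boundary at 80170000, with its centre 5 kb away. Its contacts with 80510001 to 80540000 and with 80700001 to 80730000 are among those 4, so their placing in domain 2 is uncertain. The others of the 4, from 79770001 to 79800000 and 79840001 to 79870000, lie clear of that boundary. In each mutant the 8 squares chosen from its own map all lay within 30 kb of the WT ones. The expected level does not correct for coverage, and the anchors have 1.10 to 1.86 times the median coverage, so balanced values or ranks are given beside the raw ones.

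The highest contact in WT joined 80150001 to 80180000 with 80510001 to 80540000, 360 kb apart, from the boundary at 80170000 to just right of the one at 80500000. It held 1103 counts in DelB, 1052 in DelBs, 993 in InvF and 819 in WT. This was 4.42 times the expected count in DelB (4.17 to 4.69), 4.05 times in DelBs (3.81 to 4.30), 4.68 times in InvF (4.39 to 4.98) and 4.68 times in WT (4.36 to 5.01). It ranked 2 of 14878 squares in DelB, 3 of 14878 in DelBs, 2 of 14868 in InvF and 1 of 14759 in WT. Neighbouring squares overlap, so a rank describes a place on the map and not an independent count. Its balanced value was 2.40 in DelB, 2.21 in DelBs, 2.45 in InvF and 2.53 in WT, which ranked 39, 56, 43 and 43.

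The contact with the greatest distance joined 79770001 to 79800000 in domain 2 with 80510001 to 80540000 in domain 4, 740 kb apart. Its observed over expected value was 3.42 in DelB (3.10 to 3.76, 415 counts), 2.97 in DelBs (2.68 to 3.28, 385 counts), 3.30 in InvF (2.96 to 3.68, 338 counts) and 3.85 in WT (3.43 to 4.31, 302 counts). For this contact only the DelBs interval lies wholly below that of WT. The balanced values, 2.55 in DelB, 2.29 in DelBs, 2.50 in InvF and 2.82 in WT, kept WT highest and DelBs lowest. For several others of the 8 contacts the DelBs interval also lies wholly below that of WT in raw counts.

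Another contact, from 79790001 to 79820000 to the second boundary at 80150001 to 80180000, stood at 3.80 in DelB (947 counts), 3.46 in DelBs (898 counts), 3.55 in InvF (754 counts) and 4.01 in WT (702 counts). Its balanced values were 2.41 in DelB, 2.33 in DelBs, 2.197 in InvF and 2.55 in WT. The contact from 80150001 to 80180000 with 80700001 to 80730000, 550 kb apart, was the only 1 of the 8 that was higher in all mutants than in WT, at 3.13 in DelB (503 counts), 3.21 in DelBs (540 counts), 3.59 in InvF (483 counts) and 2.91 in WT (310 counts). The InvF interval, 3.27 to 3.92, lies above that of WT, 2.60 to 3.26, while those of DelB and DelBs overlap it. When balanced its values were 1.93 in DelB, 1.86 in DelBs, 2.12 in InvF and 1.87 in WT, so that DelBs was no longer above WT, and its balanced rank was 147, 159, 98 and 238. Since WT chose the squares by their height, a lower value in the mutants is favoured by the choice.

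The contact from 79770001 to 79800000 with 80080001 to 80110000, within domain 2, was at 2.85 in DelB (824 counts), 3.16 in DelBs (938 counts), 3.31 in InvF (808 counts) and 3.59 in WT (735 counts). Its DelB interval, 2.66 to 3.05, lies below that of WT, 3.33 to 3.86, while those of DelBs and InvF overlap it. When balanced the contact was at 2.199 in DelB, 2.40 in DelBs, 2.58 in InvF and 2.72 in WT. The remaining 3 ranked lower in balanced than in raw maps in every library. The same held above for the contacts of 80150001 to 80180000 with 80510001 to 80540000 and with 80700001 to 80730000. It also held for that with 79790001 to 79820000, from raw rank 9, 12, 17 and 7 to balanced rank 36, 41, 84 and 41 in DelB, DelBs, InvF and WT. The contact from 79840001 to 79870000 with 80070001 to 80100000 was raw rank 5 in DelB, 5 in DelBs, 5 in InvF and 4 in WT, but balanced rank 241, 306, 208 and 185. A square shifted by 10 kb from it is among the 8 chosen on the balanced WT map. That from 79840001 to 79870000 with 80510001 to 80540000 had the balanced rank 685 in DelB, 820 in DelBs, 1626 in InvF and 1212 in WT. That from 79870001 to 79900000 with 80150001 to 80180000 had 1802, 1668, 1657 and 900. The anchor 79840001 to 79870000 includes the best covered bin of the stretch.

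Chosen on the balanced WT map, the highest contact joined 80170001 to 80200000 with 80490001 to 80520000, 320 kb apart. Its anchors are centred 15 kb and 5 kb from the boundaries at 80170000 and 80500000, so it marks the corner of domain 3. Its balanced value was 3.57 in DelB, 3.32 in DelBs, 3.58 in InvF and 3.95 in WT, on 954, 981, 864 and 717 counts, and it ranked 2, 1, 3 and 1 of 14878. The next ones joined 79770001 to 79800000 with 80500001 to 80530000, at 2.77 in DelB, 2.66 in DelBs, 2.75 in InvF and 3.14 in WT, and with 80160001 to 80190000, at 2.79, 2.57, 2.92 and 3.05. The segments within 79770001 to 79820000, at the second boundary and at 80500000 thus met each other above the expected level in every pairing, in raw and in balanced maps, in all 4 libraries. On this scale 7 of the 8 squares chosen in DelB, 6 in DelBs and 7 in InvF lay within 30 kb of WT's.

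Apart from these structures, each mutant was compared with WT over the whole stretch in 190 blocks of 100 kb by 100 kb. Blocks were counted past a smaller threshold, a log2 ratio of 0.32 either way, and past 2 fold. In DelB 3 of 190 blocks passed the smaller threshold, 2 higher and 1 lower, against a background of 51% of all blocks of the map. In DelBs 5 passed, 4 higher and 1 lower, against 51.2%, and in InvF 1 passed, lower, against 32.3%. None (0) of the 190 passed 2 fold in any mutant, against 34.2%, 29.9% and 7.27% of the whole map in DelB, DelBs and InvF. The background includes the deleted, inverted and newly joined segments. Left of every rearrangement, where none of these lies, 5.26% of 589 blocks passed the smaller threshold in DelB, as did 8.32% in DelBs and 2.89% in InvF.

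The counting interval excluded 1 for each of those blocks, and over all 190 it lay above 1 for 33, 44 and 13 blocks and below 1 for 33, 51 and 43 in DelB, DelBs and InvF. No block passed the smaller threshold in all 3 mutants in 1 direction (0 of 190). In DelB 2 of the 3 blocks past it, in DelBs 2 of 5 and in InvF the single 1 had an end in the last 60 kb of the map, 80940001 to 81000000, where a block holds fewer pairs of bins. The highest block of DelB joined 79640001 to 79740000 with that end, at 1.32 times WT (1.10 to 1.58, from 363 counts against 192). In DelBs the same block was at 1.30 (1.09 to 1.55, 373 counts) and in InvF at 1.21 (1.00 to 1.46, 289 counts), all against the same 192 WT counts. The highest block of DelBs joined 80040001 to 80140000 with the map's end, at 1.36 (1.18 to 1.56, from 625 counts against 308). Its log2 ratio was 0.44 in DelBs, 0.29 in DelB and 0.25 in InvF, and 0.25 in DelBs after balancing.

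Lower blocks were of 2 kinds. The lowest of InvF, at 0.738 (0.626 to 0.871, from 281 counts against 306), and of DelB, at 0.792 (0.666 to 0.942, from 286 against 252), were sparse blocks that joined domain 1 with the map's end, 79340001 to 79440000 in InvF and 79440001 to 79540000 in DelB. The lowest of DelBs was a dense block on the diagonal, 80540001 to 80640000, at 0.797 (0.772 to 0.823, from 8175 counts against 6855). After balancing its log2 ratio was -0.11, against -0.33 in raw counts. That block includes the bin where DelBs coverage fell furthest below WT.

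**Figure D5:**
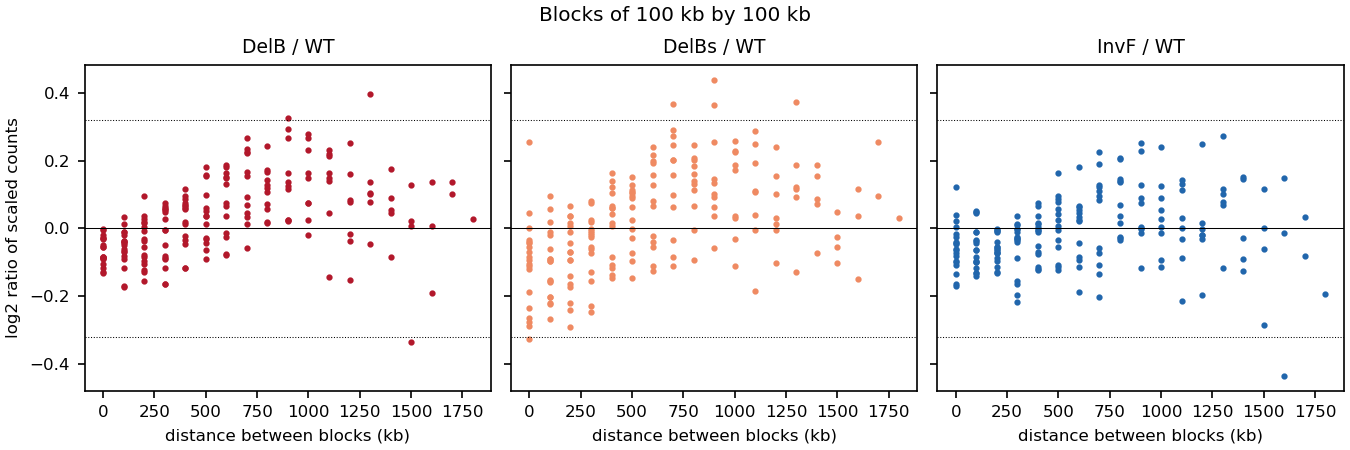
Log2 ratio of scaled counts, mutant over WT, in 190 blocks of 100 kb by 100 kb against the distance between the blocks in kb, for DelB, DelBs and InvF; dotted lines mark log2 ratios of 0.32 and -0.32. Most points lie between the lines (3, 5 and 1 lie outside) and near blocks are mostly below 0 in all 3 panels.

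The spread of these log2 ratios, as a standard deviation over blocks, was 0.12 for DelB, 0.15 for DelBs and 0.11 for InvF. Counting alone would give 0.06 in DelB, 0.06 in DelBs and 0.07 in InvF. Once each distance was matched within the stretch, which removes the tilt, the spread was 0.09 for DelB, 0.12 for DelBs and 0.10 for InvF. The matched spread was thus still above the counting value, which takes counts as independent. Bin coverage is not corrected in these ratios, and what lies behind the remaining spread was not tested. Between pairs of mutants the matched spread was 0.09 for DelB with DelBs, 0.06 for DelB with InvF and 0.08 for DelBs with InvF, against 0.06 by counting in each.

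In finer blocks of 50 kb, log2 observed over expected correlated between libraries with Pearson's r from 0.954 (DelBs with WT) to 0.969 (DelB with InvF) and Spearman's rho from 0.946 to 0.963, over 732 to 740 blocks. These blocks share bins and their capture efficiency, so the coefficients describe the maps and carry no p. In balanced maps, which take that shared coverage out, r ranged from 0.893 to 0.928. The variation beyond counting, as a coefficient of variation per block after matching each distance, was 3.24% between DelB and WT, 8.20% between DelBs and WT and 3.97% between InvF and WT. Between mutants it was 7.23% for DelB with DelBs, 3.62% for DelB with InvF and 4.68% for DelBs with InvF. The pairs with DelBs were thus the most variable, and those without it all lay under 4%. On the left of every rearrangement the same measure was 3.65% for DelB, 5.13% for DelBs and 3.71% for InvF against WT, over 2223 blocks.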

How the data were processed

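The values deposited by the authors as raw maps are counts, in whole numbers, of the read pairs that join one 10 kb bin to another; file names give a mapping quality cut-off of 30. For each such map the authors deposited a balanced signal, KR-normalized according to its file name. Reads were mapped with Bowtie2 2.2.6 to build mm9, per the submitters' processing notes. Per the labels' protocols, formaldehyde-fixed limb bud cells were lysed and the DNA was enriched with custom SureSelect probes. The treatment of PCR duplicates is not given in the sources, and counts are taken as independent. All columns had a sample (0 unmatched), and the deposited difference maps were not used here.

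Ratios, decay, insulation, domains, blocks and focal contacts were computed with Python 3.11.15, numpy 2.4.6 and scipy 1.17.1, and drawn with matplotlib 3.10.9. A deletion was located as consecutive bins whose share of counts was under 10% of that in WT, and an inversion by the contacts in its 100 kb corners. Intervals given as a range are exact: conditional binomial for ratios of counts, and Poisson for observed over expected values. Those after ±, for slopes and boundary depths, are normal approximations from Poisson counts. Blocks needed 50 counts in 1 of the 2 libraries and had a pseudocount of 1. Focal squares needed an expected WT count of 30, and correlated blocks one of 20. Alternatives were other scalings, balanced maps, and other windows, depths, block sizes and distance ranges. The functions were tested on simulated data.

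Regions were named by rule: the WT boundaries and domains, the 8 focal contacts, the 3 highest and 3 lowest blocks per mutant, of which some are given, and bins under 10% of the median coverage. Other windows, runs and bins, and the contacts chosen on balanced maps, were picked after their values were seen. The stretch, the rule and the tests were chosen with earlier results of these data known. Genes were taken from the RefSeq table of GRCm38 for names and order alone.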

Additional observations from a re-analysis of the deposited data

How the results depend on the processing

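Scaling to all counts turned the totals of all 3 mutants from below WT to above it. None of the other scalings, balanced maps or distance ranges turned a total or a slope difference, but many moved a value beyond its counting error. Values are given for DelB, DelBs and InvF, then WT where it has one. Totals relative to WT (0.981, 0.957 and 0.968) became 1.308, 1.266 and 1.022 by all counts, 0.988, 0.944 and 0.957 by the left region and 0.997, 0.989 and 0.9997 when balanced; matching each distance within the stretch fixes them at 1 and gave no value. Slopes minus WT became 0.024, 0.040 and 0.012 over 20 to 500 kb, and 0.076, 0.089 and 0.046 over 100 kb to 1 Mb. The 3 boundaries became 4, 7, 5 and 5 with a 100 kb window, and 4 in every library when balanced. The 5 of WT include adjacent positions, after 80770000 and after 80780000, so a single dip is counted more than once. With a 400 kb window they became 2, 2, 2 and 1, and none was called near 80500000 in any library. A required depth of 0.4 left 1, 2, 2 and 1, and a required depth of 0.1 gave 3, 4, 3 and 3. Within over between domains became 1.12, 1.10, 1.13 and 1.13 against all same-side pairs, and 1.27, 1.26, 1.29 and 1.27 when balanced. Blocks past a log2 ratio of 0.32 became 169, 137 and 4 by all counts and 36, 62 and 26 in 50 kb blocks. They became 1, 2 and 1 with distance matched, 0, 1 and 1 in 200 kb blocks, and 4, 5 and 3 when balanced. Of the blocks past it in raw counts, 3 of 3, 2 of 5 and 1 of 1 also passed when balanced. The spread of block log2 ratios became 0.158, 0.189 and 0.157 in 50 kb blocks, and 0.0886 in DelB and 0.116 in DelBs with distance matched. Over pairs of libraries, r lay between 0.914 and 0.925 in 20 kb blocks, 0.970 and 0.989 in 100 kb blocks and 0.893 and 0.928 when balanced, and the variation beyond counting between 3.53% and 11.0% in 20 kb blocks and 3.03% and 6.88% in 100 kb blocks. Balanced, an alternative added after the values were seen, the lowest windows became 0.961, 0.944 and 0.980. Of the values for single boundaries and focal contacts, 21 and 87 moved beyond counting error and 15 and 9 did not. No replicate could be left out and no paired analysis was possible because each genotype has 1 library. A further library of each genotype would be needed to tell genotype from library.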
